A study of Mus musculus with 4 samples.

Results

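The p53 target genes described here are 10 genes, namely p53 itself (Trp53) and genes of stress, growth arrest and feedback that it is known to switch on. They were selected on results of these same arrays, in which some of them had differed between the lines below. All their probe sets were taken by gene symbol from the platform annotation, which named 19 probe sets for 9 of the 10 genes, out of 12393 genes in all. It named none for Trp53, so the level of p53's own transcript is not analysed here. RNA came from mouse CH10T1/2 cells, a fibroblast line of embryonic origin, and was hybridised to 4 arrays of the type Affymetrix Mouse Genome 430A 2.0, 1 for each of 4 groups. In the first group the cells carried, by stable transfection, the R150C variant of PTHR1 (the receptor for PTH and PTHrP) found in enchondromas, which are benign cartilage tumours, and received 1e-07 M PTHrP for 1 h. The second was the same R150C line with carrier, the third the line with wild-type PTHR1 (WT) and PTHrP at the same dose and time, and the fourth the WT line as a control, for which the sample's own labels name no carrier while the series text does. All cells spent the preceding night without serum. Each receptor is represented by 1 transfected line, so receptor and line cannot be told apart, and the labels give neither the promoter that drives the receptor nor whether a line is 1 clone.

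p53 is a transcription factor that is kept low by continuous breakdown and accumulates after DNA damage and other stress. It then binds response elements in its target genes, which halt the cell cycle, repair DNA, limit growth signalling or start cell death. Among the targets, Mdm2 encodes the ubiquitin ligase that breaks p53 down, which closes a feedback loop. Several of these genes also answer to other inputs, such as serum, nutrient stress and growth factor signalling, so that their levels can differ without a difference in p53.

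RefSeq promoter windows (build GRCm38.p6, from 250 bases before to 50 bases after a transcription start) were at hand for 9 of the 10 genes, 12 windows in all, with none for Trp53inp1. The p53 response element consensus, a run of 20 bases made of a repeated block of 10, was searched without a spacer and with at most 1 mismatch. It reads alike on both strands. It was found in 2 of the 12 windows, that of Ccng1 and that of the upstream start of Cdkn1a, against 29 of all 32851 mouse windows (0.0883%). The cAMP response element TGACGTCA, of interest because PTHR1 signals through cAMP, was searched on both strands and found in 1 window, that of Plk2, against 1.79% of all windows. The pattern TGANTCA, with any base at N, is broader than the AP-1 site, which has C or G there. It was also searched on both strands and was in none of the 12, against 7.81% of all windows for this broader pattern. It cannot lie within TGACGTCA. The 3 windows with a match are printed 5' to 3', with the matched bases in capitals. They are Cdkn1a (chr17:29090729-29091028, + strand, match at -51 to -32 from the start), Ccng1 (chr11:40755237-40755536, - strand, -195 to -176) and Plk2 (chr13:110394794-110395093, + strand, -62 to -55).
Cdkn1a: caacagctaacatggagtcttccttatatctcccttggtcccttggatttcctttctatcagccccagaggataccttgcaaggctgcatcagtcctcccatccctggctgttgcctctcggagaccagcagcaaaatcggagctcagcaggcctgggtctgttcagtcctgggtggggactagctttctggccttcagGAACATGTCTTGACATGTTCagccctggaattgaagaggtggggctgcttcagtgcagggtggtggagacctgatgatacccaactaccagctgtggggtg
Ccng1: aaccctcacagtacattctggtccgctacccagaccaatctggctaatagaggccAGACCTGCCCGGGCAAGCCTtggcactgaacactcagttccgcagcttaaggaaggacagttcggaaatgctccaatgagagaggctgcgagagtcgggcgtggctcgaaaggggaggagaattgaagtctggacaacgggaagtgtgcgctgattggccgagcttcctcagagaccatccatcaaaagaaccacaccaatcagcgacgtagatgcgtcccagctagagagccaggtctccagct
Plk2: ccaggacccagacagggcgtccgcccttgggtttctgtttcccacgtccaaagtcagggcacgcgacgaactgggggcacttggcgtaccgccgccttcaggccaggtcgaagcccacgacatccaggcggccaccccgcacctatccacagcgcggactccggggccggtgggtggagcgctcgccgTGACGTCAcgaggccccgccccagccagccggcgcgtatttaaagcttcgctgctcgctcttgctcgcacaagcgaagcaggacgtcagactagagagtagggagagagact
A match describes these letters and does not show that a factor binds there. For windows without a match, it says only that these letters are absent from them.

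Values are deposited fluorescence signals on a linear scale, 1 per probe set and array. Differences were taken on the scale log2(signal + 16), after each array was centred on its median over the kept genes, and understate the change of dim genes. A gene is represented by its brightest probe set unless stated, and 6197 genes with a mean of at least 62.6 in signal, the median over genes turned back from that scale, were kept. Of the 9 measured p53 target genes 8 were kept, from Sesn2 at a mean signal of 100.4 upwards, and Gadd45a, between 6.2 and 31.2 on the arrays, was not. With 1 array per group no test was made between groups. Because of how the genes were selected, their values are a description. As a scale for error, the departure of the 4 arrays from additive effects of line and treatment was used: over the kept genes it puts the spread of the difference of 2 arrays at 0.25 (SD, log2). In 4 brightness classes of equal size, over all genes, it was 0.38, 0.38, 0.27 and 0.21, from the dimmest to the brightest. Any true difference between the responses of the lines is part of that spread. Whatever the 2 arrays of a line share cancels out of it. For a difference between the lines it thus covers error between arrays only, not variation from line to line.

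Fibroblast markers fixed for the check were bright: all 11 measured were kept, with a median signal of 3697.4 and 3523.7 in the R150C line (PTHrP, carrier) and 5365.0 and 4271.2 in the WT line (PTHrP, control). Of 21 markers of macrophages, endothelium, epithelium and neurons 2 were kept. The 4 arrays shared a trimmed mean signal of 150.1. The ratio of 3' to 5' signal of the Actb control probe sets was 2.31 and 2.13 in the R150C line (PTHrP, carrier) and 2.39 and 1.42 in the WT line (PTHrP, control), and that of Gapdh was 1.21, 0.991, 1.17 and 0.845 in the same order. The WT control array therefore had the lowest 3' to 5' ratio for both genes. Counts of kept genes past 2-fold depend on the centring: between the lines in control medium 126 were higher and 60 lower in R150C cells, but 178 and 35 when centred on all probe sets and 156 and 49 after quantile normalization. After PTHrP in the WT line the counts were 6 higher and 18 lower, but 17 and 6, and 9 and 11, in these settings.

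Setting R150C cells against WT cells asks which of these genes differ with the receptor a line carries. The stress genes Trp53inp1 and Sesn2 were at least 2-fold lower in R150C cells in both media, and Sesn1 was at least 1.5-fold lower in both. For Sesn1 in control medium this was narrow, at 1.51-fold, and it did not hold in every processing setting. Plk2 was at least 1.5-fold higher in both media. Mdm2, Ccng1 and Aen lay close to equal by their brightest probe sets. Under PTHrP 2 of the 8 kept p53 target genes were at least 2-fold lower, where 0.726% of all kept genes were, and 0 were at least 2-fold higher, where 2.16% were. In control medium the same 2 genes were lower, against 0.968% of all kept genes, and 0 higher, against 2.03%. Among all kept genes 0.387% were at least 2-fold lower in both media. At 1.5-fold in both media, 3 of the 8 were lower, against 2.16% of all kept genes, and 1 was higher, against 3.36%. Since the list was chosen with these differences in view, nothing is read from the counts. In RNA of whole cultures, fewer cells with a transcript and less of it per cell cannot be told apart. The median of the 8 was -0.42 under PTHrP and -0.22 in control medium (log2), beside -0.07 and -0.04 over all kept genes.

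**Figure D1:**
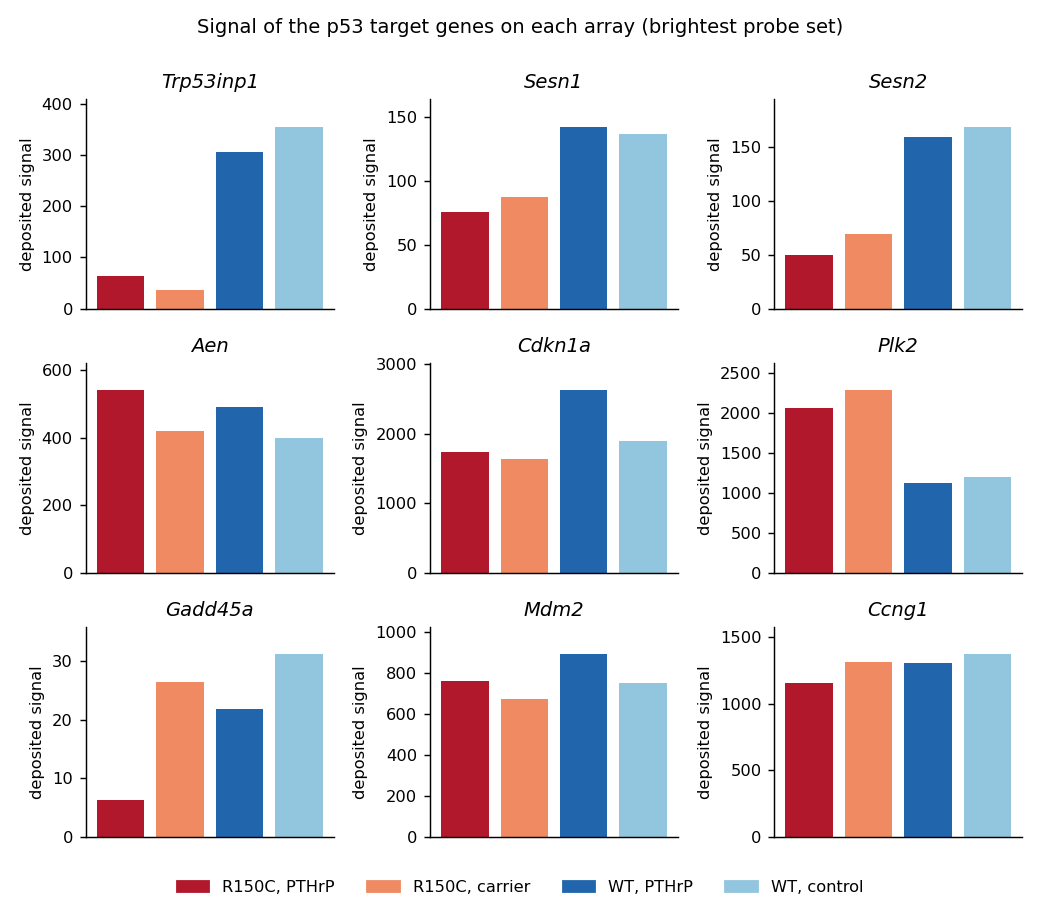
Deposited signal (linear, vertical axes from 0) of the brightest probe set of each measured p53 target gene, 1 bar per array, with no error bars since each group has 1 array. Trp53inp1, Sesn1, Sesn2 and Cdkn1a have both R150C bars under both WT bars, and Plk2 has them above. Heights of different genes cannot be compared.

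Among the stress genes, Trp53inp1 encodes a nuclear protein that promotes p53-dependent cell death and takes part in autophagy. Its probe set 1416926_at had a signal of 64.2 and 37.1 in R150C cells (PTHrP, carrier), against 304.8 and 355.1 in WT cells (PTHrP, control). Both R150C arrays lay far below both WT arrays. The WT arrays were 0.23 apart (log2), within the spread of 0.27 at this brightness, and the R150C arrays 0.59 apart, beyond it. The difference was -2.02 under PTHrP and -2.84 in control medium, a level 4.06-fold and 7.14-fold lower in R150C cells on the signal + 16 scale. From the lowest upwards Trp53inp1 had rank 2 of the 6197 kept genes in each medium, a description only, since the list was chosen with these differences in view. Its R150C signals lie just above (PTHrP) and below (carrier) the filter level of 62.6, so Trp53inp1 was kept through its WT arrays. Its other probe set, 1416927_at, was dim and did not repeat this under PTHrP. It read 23.5 and 13.4 in R150C cells (PTHrP, carrier) and 5.2 and 85.2 in WT cells (PTHrP, control), a difference of 0.88 under PTHrP and -1.82 in control medium. With the mean of both probe sets Trp53inp1 stood at -0.56 under PTHrP and -2.26 in control medium.

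The sestrins Sesn1 and Sesn2 are stress proteins that restrain mTORC1, the kinase complex that drives cell growth, and Sesn2 is also a sensor of leucine. Sesn2 (probe set 1451599_at) read 50.0 and 69.5 in R150C cells (PTHrP, carrier), against 159.7 and 169.3 in WT cells (PTHrP, control). The groups did not overlap, and both differences, -1.43 under PTHrP and -1.15 in control medium, exceeded the spread of 0.27 for genes of this brightness. Its ranks from the lowest were 9 and 33 of the 6197, likewise a description. The R150C signals of Sesn2 lie on either side of the filter level of 62.6, so it too was kept through its WT arrays. The other Sesn2 probe set, 1425139_at, also above the filter, read 36.9 and 49.0 in R150C cells and 86.7 and 111.2 in WT cells in the same order. Its level was 1.97-fold lower in R150C cells under PTHrP and 2-fold lower in control medium, so both probe sets of Sesn2 placed R150C cells lower in both media. Sesn1 (1433711_s_at) read 75.6 and 87.3 in R150C cells (PTHrP, carrier), against 142.6 and 136.9 in WT cells (PTHrP, control). Its differences were smaller than those of Sesn2, at -0.81 and -0.60. Both further Sesn1 probe sets lay below the filter with signals from 8.9 to 49.2, and differed by -0.50 and -0.65 under PTHrP and by -1.20 and -0.49 in control medium. All 3 probe sets of Sesn1 were thus lower in R150C cells in both media.

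Aen encodes an exonuclease that p53 induces during apoptosis. It (1423957_at) read 540.4 and 420.7 in R150C cells (PTHrP, carrier) and 490.9 and 400.5 in WT cells (PTHrP, control), and the lines overlapped. By this probe set the differences of 0.11 and 0.04 were within the spread of 0.21 for this brightness. Its second probe set, 1450506_a_at, above the filter, differed by -0.04 under PTHrP and by -0.32 in control medium, where the spread is 0.27. The dim 1451186_at, below the filter, differed by 0.65 and -1.07, at a spread of 0.38. Averaged over its 3 probe sets, Aen stood at 0.25 under PTHrP and -0.38 in control medium. Its difference in control medium thus depended on the probe set.

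Of the arrest genes, Cdkn1a encodes p21, the inhibitor of cyclin-dependent kinases through which p53 stops the cell cycle, and its upstream promoter window holds the p53 consensus printed above. It (1424638_at) read 1743.0 and 1631.0 in R150C cells (PTHrP, carrier), against 2622.3 and 1894.9 in WT cells (PTHrP, control). Both R150C arrays were below both WT arrays. The difference was -0.61 under PTHrP, and -0.25, little more than the spread of 0.21, in control medium. A second probe set, 1421679_a_at, gave nearly the same differences, -0.60 and -0.27, from signals of 189.7 and 210.8 in R150C cells and 291.7 and 251.3 in WT cells. Plk2, a polo-like kinase that acts in centriole duplication and is also known as a serum-inducible kinase, was the 1 member that stood higher. It (1427005_at) read 2060.2 and 2278.3 in R150C cells (PTHrP, carrier), against 1122.0 and 1190.2 in WT cells (PTHrP, control). The differences of 0.85 and 0.90 were alike in the media, each over 1.5-fold and under 2-fold, and rest on its only probe set. Gadd45a, which encodes a small protein that binds PCNA and stress kinase activators and holds cells before mitosis, was near the floor of the array, with 6.2 and 26.5 in R150C cells (PTHrP, carrier) and 21.8 and 31.2 in WT cells (PTHrP, control). The lines overlapped, and its differences of -0.79 and -0.18 have a spread of 0.38.

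The feedback genes differed little by their brightest probe sets. Mdm2 (1423605_a_at) read 760.3 and 671.5 in R150C cells (PTHrP, carrier) and 889.1 and 749.4 in WT cells (PTHrP, control), with differences of -0.24 and -0.19. The lines overlapped in these signals, while after centring WT control lay 0.02 above the R150C array with PTHrP. Ccng1, the gene of cyclin G1, which binds a phosphatase that acts on Mdm2, (1420827_a_at) read 1152.3 and 1313.0 in R150C cells and 1305.1 and 1370.9 in WT cells in the same order. Its differences were -0.20 and -0.09, within the spread of 0.21. By these probe sets neither gene differed between the lines by much more than the spread at this brightness. With the mean of all their probe sets, both Mdm2 and Ccng1 stood at -0.13 under PTHrP and at -0.63 in control medium.

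**Figure D2:**
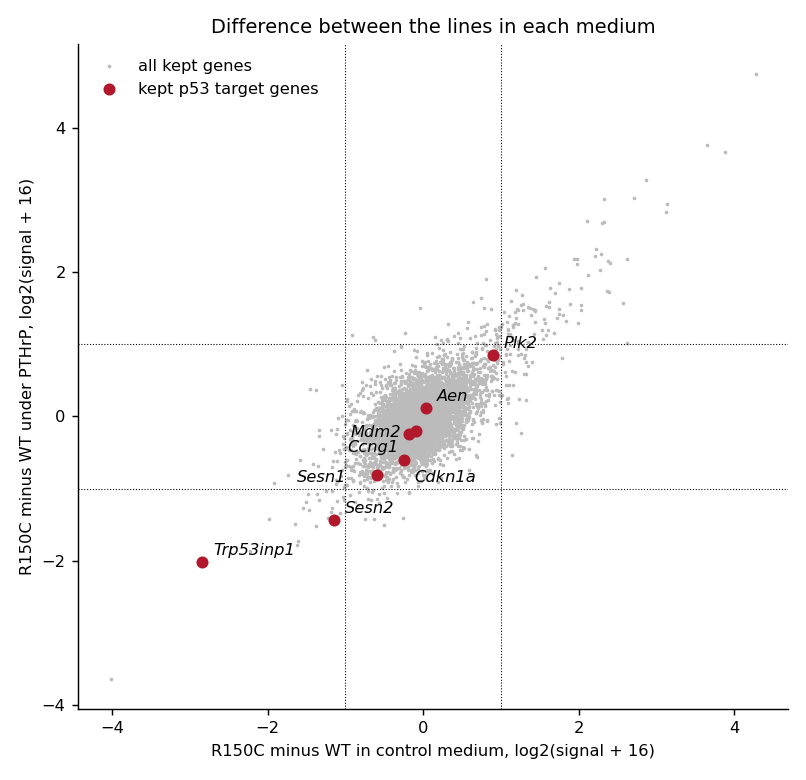
Difference between the R150C and the WT line in control medium (horizontal) and under PTHrP (vertical), both as log2(signal + 16), for each kept gene in grey and the 8 kept p53 target genes in red, with dotted lines at 2-fold. Trp53inp1 (-2.84 and -2.02) and Sesn2 (-1.15 and -1.43) lie past 2-fold on both axes, and Plk2 (0.90 and 0.85) lies just inside.

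The further probe sets of Mdm2 and Ccng1 gave another picture, in which the WT control array stood highest. The second Mdm2 probe set, 1427718_a_at, read 256.9 and 324.4 in R150C cells (PTHrP, carrier) and 259.3 and 754.9 in WT cells (PTHrP, control). The WT control value alone stood apart, so that the lines differed by -0.03 under PTHrP and -1.21 in control medium. In Ccng1 the probe set 1450016_at read 544.3 and 585.7 in R150C cells and 739.6 and 1548.0 in WT cells, and 1450017_at 893.0 and 1190.5 in R150C cells and 748.1 and 1751.1 in WT cells. WT control was again the highest, and the differences were -0.45 and 0.23 under PTHrP against -1.41 and -0.58 in control medium. In 1450016_at both R150C arrays were also below both WT arrays. Its difference under PTHrP, -0.45, exceeded the spread of 0.21 without use of the WT control array. Among the 10 probe sets other than the brightest of these genes, WT control was the highest array in 8. Among the 6 of them above the filter it was highest in 5, while over all genes this held for 38.7% of 2964 such probe sets and for 24.6% of the brightest ones. Of the 6, 3 were at least 2-fold lower under PTHrP than in control in the WT line (1 of Mdm2, 2 of Ccng1), where 4.72% of such probe sets of all genes were, against 0.29% of the brightest ones. The lower 3' to 5' ratios of the WT control array, given above, move with this pattern, and their part in it was not tested. The differences between the lines under PTHrP do not use that array.

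**Figure D3:**
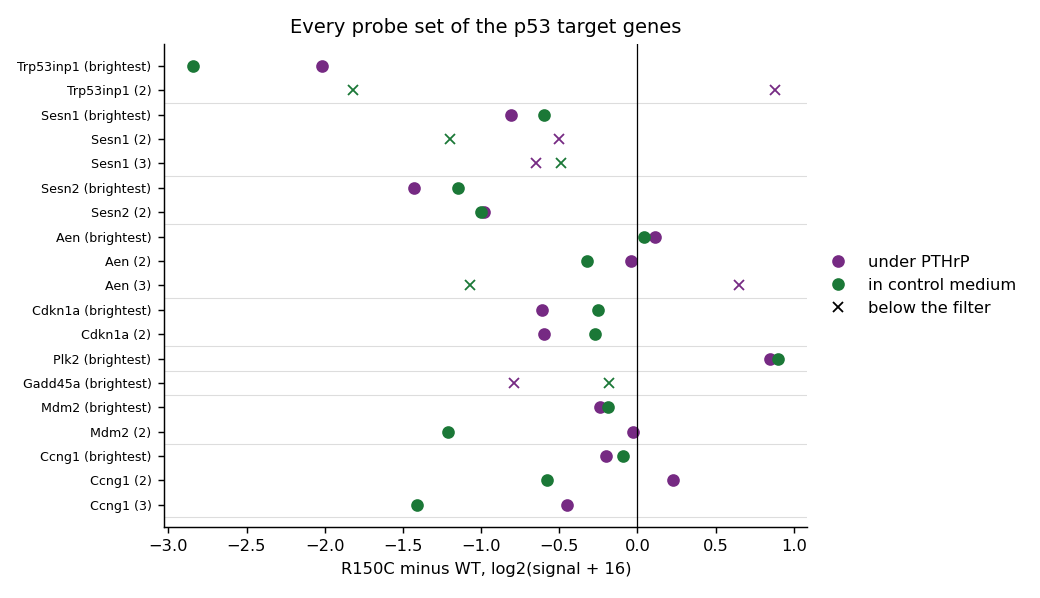
Difference between the R150C and the WT line (horizontal axis, log2(signal + 16)) for all 19 probe sets, under PTHrP in purple and in control medium in green, with crosses for probe sets below the filter and numbers for the order of brightness within a gene. Both probe sets of Sesn2 lie between -1.43 and -0.98 and both of Cdkn1a between -0.61 and -0.25, whereas the further probe sets of Mdm2 and Ccng1 lie between -1.41 and -0.58 in control medium and between -0.45 and 0.23 under PTHrP.

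The PTHrP comparison asked what 1 h of ligand does to these genes in each line. By the brightest probe sets no kept p53 target gene was 2-fold apart in either line, where 0.129% of all kept genes were higher and 0.0161% lower in the R150C line, and 0.0968% and 0.29% in the WT line. Of the 8, Trp53inp1 alone was at least 1.5-fold apart, higher after PTHrP in the R150C line, where 1.19% of all kept genes were higher and 0.645% lower by that fold. In the WT line none was, where 1.39% of all kept genes were higher and 2.34% lower. The difference of Trp53inp1 was 0.59 in the R150C line, from the signals of 64.2 with PTHrP and 37.1 with carrier. It is barely past 1.5-fold and ran from 0.34 to 0.72 over the processing settings, short of that fold in some. In the WT line Trp53inp1 differed by -0.23, and its level with PTHrP in R150C cells was still far below both WT arrays. Sesn2 differed by -0.38 in the R150C line and -0.10 in the WT line, a sign opposite to that of Trp53inp1 in the R150C line. Cdkn1a differed by 0.09 in the R150C line and 0.45 in the WT line, and by -0.15 and 0.18 in its second probe set. Among the 4 arrays Cdkn1a was highest under PTHrP in WT cells in both probe sets. That array was also the highest for 35% of all kept genes by their brightest probe set, and for 24.2% of the other probe sets above the filter. Plk2, whose promoter window holds the cAMP response element, differed by -0.15 and -0.10, within its spread of 0.21. By their brightest probe sets Aen differed by 0.34 and 0.26 and Mdm2 by 0.17 and 0.22. Their other probe sets above the filter had the opposite sign, at -0.14 and -0.41 for Aen and -0.33 and -1.51 for Mdm2. With the mean of all probe sets Mdm2 differed by -0.07 in the R150C line and -0.58 in the WT line, and Aen by 0.26 and -0.37. Ccng1 differed by -0.19 and -0.09 by its brightest probe set, and by -0.23 and -0.73 with the mean. Its further probe sets differed by -0.42 and -1.23 (1450017_at) and by -0.11 and -1.07 (1450016_at). Gadd45a differed by -0.95 in the R150C line (6.2 with PTHrP and 26.5 with carrier) and by -0.34 in the WT line, at signals where the spread is 0.38. The median over the 8 kept genes was -0.03 in each line, beside -0.01 and 0.03 over all kept genes.

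**Figure D4:**
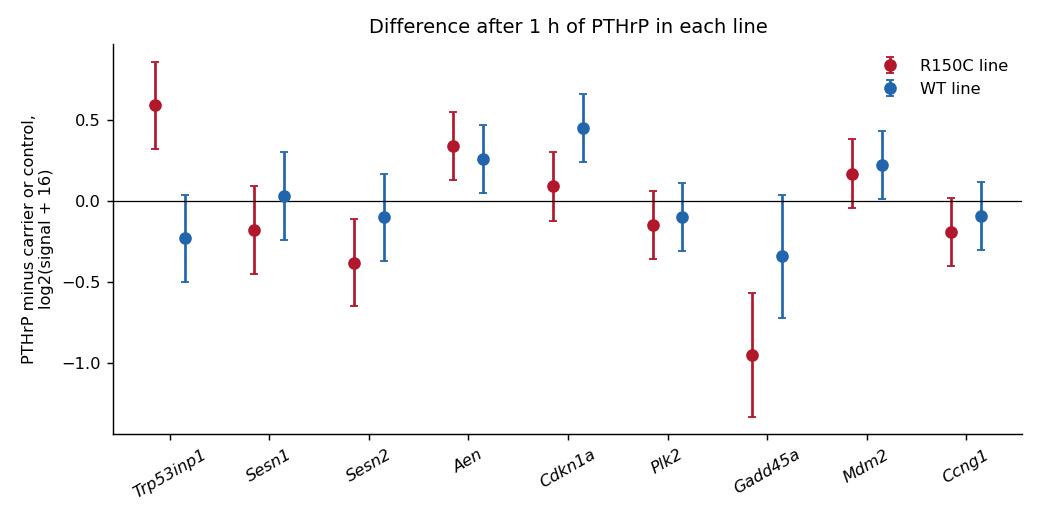
Difference of PTHrP minus carrier in the R150C line (red) and PTHrP minus control in the WT line (blue), as log2(signal + 16), with the brightest probe set of each gene. Bars are plus and minus the spread (SD) of such a difference at that brightness, from 0.21 to 0.38. Trp53inp1 at 0.59 in the R150C line and Cdkn1a at 0.45 in the WT line stand furthest above 0, and Gadd45a, at -0.95 in the R150C line and dim, furthest below.

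Other genes listed for the p53 pathway that were 1.5-fold apart between the lines in both media lay in both directions. Of 73 further genes with a probe set, 50 were kept, with a median difference between the lines of -0.08 under PTHrP and -0.23 in control medium, beside -0.07 and -0.04 over all kept genes. Below 0 were 32 of the 50 under PTHrP, where 57.6% of all kept genes were, and 33 in control medium, where 54.9% were. The median of each of the 6 lists was below 0 in both media, from -0.40 to -0.04 under PTHrP and from -0.34 to -0.08 in control medium. At 1.5-fold in both media 2 of the 50 (4%) were lower in R150C cells and 3 (6%) higher, against the 2.16% and 3.36% of all kept genes given above. The lists were chosen with earlier results of these data known, so nothing is read from these counts. Of 9 kept genes listed as arrest and repair targets 1 was lower in this way, Cdkn1b, and 0 higher. Cdkn1b, the gene of the p21 relative p27, was also listed as a relative, and whether p53 controls it was not tested. It read 69.6 and 65.5 in R150C cells (PTHrP, carrier), against 140.6 and 154.2 in WT cells (PTHrP, control), a difference of -0.89 and -1.09. Zmat3, an RNA-binding target of p53, differed by -0.10 and -0.64. These pairs, like those that follow, are the values under PTHrP and in control medium. Of 8 kept genes listed as feedback regulators 1 was lower, Ccng2, and 0 higher. Ccng2 was listed as a relative of Ccng1 too, and its control by p53 was likewise not tested. It read 63.2 and 35.1 in R150C cells against 109.7 and 112.0 in WT cells, a difference of -0.69 and -1.36. Ppm1d, a phosphatase gene that ends p53 signalling, differed by -0.29 and -0.39. Mdm4, the partner of Mdm2, lay below the filter and differed by -0.47 and -0.65.

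None of 8 kept apoptosis targets and none of 11 kept kinases, cofactors and family members were 1.5-fold apart in both media. Bbc3, which encodes the cell death protein PUMA, was below the filter and differed by -0.38 and -0.37. Chek1, a kinase of the DNA damage checkpoint, differed by -0.44 and -0.41. Of 7 kept metabolic and secreted targets 1 was higher, the matrix gene Thbs1, at 1.64 and 0.75.

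Relatives of the p53 target genes within their protein families differed in both directions. The list includes Ccng2 and Cdkn1b, given above, and of its 9 kept genes those 2 were lower in both media and 2 were higher. Gadd45b read 674.7 and 787.9 in R150C cells (PTHrP, carrier), against 266.5 and 335.9 in WT cells (PTHrP, control), a difference of 1.27 and 1.16. Gadd45g read 479.4 and 540.5 in R150C cells against 197.1 and 163.2 in WT cells, a difference of 1.20 and 1.60. Both are stress and growth factor responsive relatives of Gadd45a, which was at the floor. Sesn3, the third sestrin, differed by -0.41 and -0.29, and Trp53inp2, the relative of Trp53inp1, by -0.24 and 0.22. Plk3, a polo-like kinase like Plk2, was chosen for mention after its values were seen and lay below the filter. It read 182.6 and 128.5 in R150C cells (PTHrP, carrier), against 2.3 and 11.4 in WT cells (PTHrP, control). Both R150C arrays exceeded both WT arrays, whose values were near the floor, with a difference of 3.42 and 2.37.

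**Figure D5:**
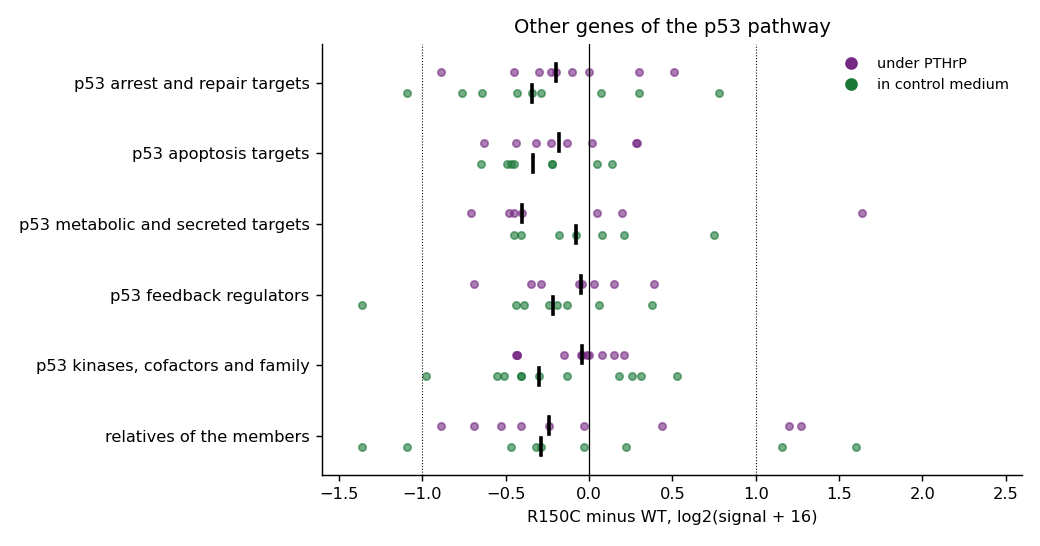
Difference between the R150C and the WT line (horizontal axis, log2(signal + 16)) for the kept genes of 6 further lists of the p53 pathway, under PTHrP in purple and in control medium in green, with black ticks at the median of each list and dotted lines at 2-fold. Points lie on both sides of 0 in every list, and Gadd45b and Gadd45g are the points past 2-fold on the right among the relatives.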

How the data were processed

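The authors deposited 1 fluorescence intensity per probe set and array, on a linear scale, from Affymetrix Expression Console (named in the submitters' processing notes), whose version and summarisation method were not given in the sources used here. The 22690 values per array include 64 control probe sets, left out here. Genes were named through the platform annotation (20380 probe sets with 1 symbol, 691 with several, 1555 with none or not listed), of which 20351 matched the GRCm38.p6 gene table. From the intensities, log2(signal + 16) was computed and centred on the median of the kept genes of each array, since centring on all probe sets had been seen to shift the kept genes. Differences were computed with Python 3.11.15, numpy 2.4.6 and pandas 2.3.3 and were tested on simulated data. The members and the gene lists were chosen with earlier results of these data known. Named outside the members were genes at least 1.5-fold apart in both media, plus a set list of relatives and regulators. The alternatives were 3 other scalings, pseudocounts of 4 and 64, the mean of all probe sets, no filter and a filter at the 75th percentile. The number of arrays limits the precision.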

Additional observations from a re-analysis of the deposited data

Results flagged for a closer look

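Trp53inp1 and Sesn1 were singled out because the responses of the lines to PTHrP had opposite signs. Trp53inp1 differed by 0.59 in the R150C line and -0.23 in the WT line. Sesn1 differed by -0.18 in the R150C line and 0.03 in the WT line, both within the spread of 0.27 at its brightness. With 1 array per group, neither difference between the lines was tested.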

How the results depend on the processing

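No paired analysis was possible because each group has 1 array, and for the same reason no replicate could be left out. Across 8 alternatives, 269 of 288 differences of the p53 target genes moved by less than the spread of 0.25, 19 moved by more, and no difference past 2-fold changed sign. The count of kept p53 target genes at least 2-fold lower in R150C cells, 2 in each medium, was 1 in each with a pseudocount of 64 (Sesn2 at -0.99 and -0.83). It was 1 under PTHrP with the mean of all probe sets, and 0 in both media with the filter at the 75th percentile, which leaves 5 of these genes and neither Trp53inp1 nor Sesn2. Centred on all probe sets, 1 gene (Plk2) was at least 2-fold higher in control medium, against 0. Sesn1 ran from -0.69 to -0.44 in control medium and from -0.90 to -0.58 under PTHrP, short of 1.5-fold in some settings. The count of 3 genes lower at 1.5-fold in both media thus depends on the setting. With the mean of all probe sets, 1 gene (Trp53inp1, -1.19) was at least 2-fold lower after PTHrP in the WT line, against 0. Of the 18 differences between the lines 2 took the opposite sign in 1 setting each, Ccng1 and Aen in control medium, and of the 18 after PTHrP 9 did. These were Sesn1, Cdkn1a and Mdm2 in the R150C line and Sesn1, Sesn2, Mdm2 (-0.58, against 0.22), Ccng1, Plk2 and Aen (-0.37, against 0.26) in the WT line. All 11 were at most 0.26 in size, and the signs of Mdm2 and Aen turned with the mean of all probe sets. Over the settings the share of all kept genes at least 2-fold lower in R150C cells ran from 0.323% to 1.05% under PTHrP and from 0.339% to 1.5% in control medium, and the share higher from 1.44% to 2.58% and from 1.39% to 2.87%. After PTHrP in the R150C line the share lower ran from 0% to 0.654% and the share higher from 0.0323% to 0.395%, and in the WT line from 0.0807% to 0.767% and from 0.0323% to 0.468%. Dim probe sets, Gadd45a among them, limit what can be seen.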
